A study of Arabidopsis thaliana with 248 samples.

Results

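SDC (AT2G17690), FWA (AT4G25530), BNS (AT1G73177), PHE1 (AT1G65330), and HDG3 (AT2G32370) are 5 genes of Arabidopsis thaliana known from studies of silencing by DNA methylation and of imprinting, and they were followed here in seedlings whose heterochromatin marks had been lost or regained. They were taken by gene identifier, and all 5 were found among the 33602 genes of both mRNA-seq count tables. The plants were 2-week-old seedlings of the Columbia-0 strain, sampled as whole plants. Libraries came from 2 experiments, one with ldl2 (27 libraries of 9 genotypes) and one with ashh3 (9 libraries of 3 genotypes), and every genotype had 3 replicates. The mutant suvh456 lacks the H3K9 methyltransferases SUVH4, SUVH5, and SUVH6, and cmt23 lacks the non-CG DNA methyltransferases CMT2 and CMT3. The F1 named sxc came from a suvh456 seed parent and a cmt23 pollen parent, the F1 named cxs came from the reciprocal cross, and each F1 was therefore heterozygous at all of these loci. These 4 genotypes were also made without the histone demethylase LDL2, the F1 plants by crossing parents that both carried ldl2, and they were named suvh456 ldl2, cmt23 ldl2, sxc ldl2, and cxs ldl2. In the second experiment cxs ashh3, made from parents that both lacked the H3K36 methyltransferase ASHH3, was set beside cxs and WT. By the methods of the study the alleles were ldl2-1 and ashh3/sdg7-2, so each rests on 1 insertion line.

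Plants silence transposons, and some genes that carry transposon or repeat sequence, through a loop in which SUVH4, SUVH5, and SUVH6 methylate histone H3 where cytosines outside CG sites are methylated, and CMT2 and CMT3 methylate such cytosines where the histone mark is present. SDC encodes an F-box protein and is kept silent in vegetative tissue by non-CG methylation of tandem repeats in its promoter, and FWA encodes a homeodomain (HD-ZIP IV) transcription factor that is kept silent by methylation, mainly at CG sites, of direct repeats at its start. FWA, PHE1, and HDG3 are imprinted in the endosperm, the tissue that feeds the embryo, where FWA is expressed from the maternal allele and PHE1 and HDG3 from the paternal allele. PHE1 encodes a type I MADS-box transcription factor and HDG3 another HD-ZIP IV factor. BNS (BONSAI) encodes a subunit of the anaphase-promoting complex, which marks cell-cycle proteins for degradation, and it becomes methylated and silenced in some mutants from a LINE retrotransposon that lies beside its 3′ end.

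Repeats upstream of SDC and FWA are shown because silencing of these genes is known to act on repeats. Only units of 20 to 60 bases within 300 bases before a gene were searched. Longer or more distant repeats would not have been found. The repeats were read from the TAIR10.1 sequence of RefSeq, whose gene positions overlap those of the count tables for 32834 of the 32835 genes found in both. The annotated starts differ by 221 bases for SDC, 28 for BNS, and 16 for PHE1. SDC lies on the plus strand of chromosome 2, from 7682383 to 7684083 in the count tables and from 7682162 in RefSeq. Within the 300 bases before the RefSeq start, 5 adjacent units of 32 bases were read, ending 85 bases before that start. Their phase was chosen by agreement. The search asked for at least 3 copies, and the number of 5 units read was set beforehand, so the full number of copies was not determined. The units span chr2:7681918-7682077, and capitals mark a base that differs from the most common base of the 5 units.
SDC unit 1: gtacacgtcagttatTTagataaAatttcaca
SDC unit 2: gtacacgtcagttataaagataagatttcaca
SDC unit 3: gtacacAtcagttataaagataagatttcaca
SDC unit 4: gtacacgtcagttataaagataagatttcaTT
SDC unit 5: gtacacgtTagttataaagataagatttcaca

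The 5 units read differed from their common sequence at 0 to 3 bases. Counted over both strands, a unit held 0 to 2 cytosines in the CG context, 0 to 4 in the CHG context, and 3 to 7 in the CHH context, where H is A, C, or T. Units 1, 2, and 3 each held 4 CHG cytosines and unit 5 held none. In the 300 bases before its RefSeq start SDC had 22 CHG cytosines, and 7.38% of the 37897 genes with such a window had at least as many. BNS had more, 26 (2.88% of genes with at least as many), so a high CHG count was not particular to SDC. In the CG context SDC and FWA each had 14 cytosines, and 41.1% of genes had at least as many. At least 3 adjacent copies of a unit of 20 to 60 bases, matching at 85% or more, were found before 163 of these genes (0.43%), SDC among them.

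FWA lies on the plus strand of chromosome 4, from 13038360 to 13042443, and 2 direct copies of 45 bases lie at chr4:13038249-13038293 and chr4:13038294-13038338, upstream of the annotated start. Capitals mark CG sites.
FWA copy 1: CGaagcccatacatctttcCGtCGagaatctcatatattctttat
FWA copy 2: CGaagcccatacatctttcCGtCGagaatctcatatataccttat

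Copy 2 differs from copy 1 by T39A and T41C, counted from the 5′ end, and all CG sites are shared. Each copy held 6 CG cytosines and 1 CHG cytosine over both strands. At least 2 adjacent copies of a unit of 20 to 60 bases, matching at 90% or more, were found before 614 genes (1.62%), SDC and FWA among them, and no such unit was found in the 300 bases before BNS, PHE1, or HDG3. BNS (chromosome 1, minus strand, 27516572 to 27517854) starts 61 bases from the divergent gene AT1G73180, so most of its window lies inside that gene. PHE1 (chromosome 1, minus strand, 24266481 to 24267320) has a near copy, PHE2, 10399 bases away on the plus strand, and their coding sequences were identical at 85.9% of 852 aligned positions. HDG3 lies on the plus strand of chromosome 2, from 13740878 to 13746286. The reads were mapped as 100 bases, and every 100-base stretch within the exons of SDC, FWA, BNS, and HDG3 occurred once in the genome, against 97.9% for PHE1.

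The libraries held 8448989 to 12942034 counts (median, 10983243) in the experiment with ldl2 and 8252720 to 10656469 (median, 9005071) in the experiment with ashh3. Levels are given as CPM, the read count over the TMM-scaled library size, times 1000000. Of the libraries, cxs ldl2 replicates 2 and 3 stood apart. They held 30088 and 27758 genes with at least 1 read, against 24637 to 27166 in the other libraries of that experiment and 25601 in cxs ldl2 replicate 1. The summed level of 3 seedling markers, the genes of a photosynthetic subunit (RBCS1A), a chlorophyll-binding protein, and a root glucosidase (PYK10), was 6316 CPM in cxs ldl2 replicate 2, and 13407 CPM or more in each other library of that experiment, and all 3 markers had reads in every library. Replicates correlated with r of 0.892 to 0.982 across genes, and no pair was alike within counting error.

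SDC transcript was found in all 27 libraries of the experiment with ldl2, at a high level in the suvh456 mutants and at a low level in the cmt23 mutants. In the F1 plants it had few reads, and its ranges overlapped that of WT. SDC had 10.9, 17.3, and 13.1 CPM in suvh456 ldl2 and 5.79, 10.1, and 5.84 CPM in suvh456. It had 1.22, 2.17, and 1.60 CPM in cmt23 ldl2 and 1.58, 1.89, and 0.776 CPM in cmt23, against 0.0943, 0.294, and 0.458 CPM in WT. None of these 4 mutants overlapped WT, and the share of all genes that were likewise higher without overlap was 10.9% in suvh456, 13.8% in suvh456 ldl2, 12.7% in cmt23, and 8.32% in cmt23 ldl2. In such whole-plant samples, fewer cells of a type and less RNA per cell cannot be told apart. The WT values rest on 1, 3, and 6 reads, and those of suvh456 on 72, 130, and 62 reads.

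SDC was 24.0-fold higher in suvh456 than in WT (log2 fold change, 4.59 ± 0.50 SE; edgeR, adjusted P = 5.43e-07). It was 45.5-fold higher in suvh456 ldl2 (5.51 ± 0.50, adjusted P = 2.47e-08). It was 4.73-fold higher in cmt23 (2.24 ± 0.53, adjusted P = 0.0166) and 5.51-fold higher in cmt23 ldl2 (2.46 ± 0.53, adjusted P = 0.0102). All 4 comparisons share the same WT libraries. In each, SDC was the 1 of the 5 genes that passed the test, and the share of all genes that passed as higher was 2.09% in suvh456, 2.94% in suvh456 ldl2, 2.32% in cmt23, and 1.12% in cmt23 ldl2. The calls in suvh456 and suvh456 ldl2 were kept under all 32 alternatives tried. The call in cmt23 was lost when WT replicate 1 or 2 or cmt23 replicate 1 or 2 was left out, and when only the compared groups were fitted, where the adjusted P reached at most 0.0961. The call in cmt23 ldl2 was lost without WT replicate 1 or 2 or cmt23 ldl2 replicate 2 and in the fit of the compared groups alone (adjusted P of at most 0.123).

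The mutants also differed from each other. SDC was 5.08-fold higher in suvh456 than in cmt23 (log2 fold change, 2.34 ± 0.41 SE; edgeR, adjusted P = 0.00221), and this call was kept under all 32 alternatives. In this comparison 0.634% of all genes passed as higher.

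**Figure D1:**
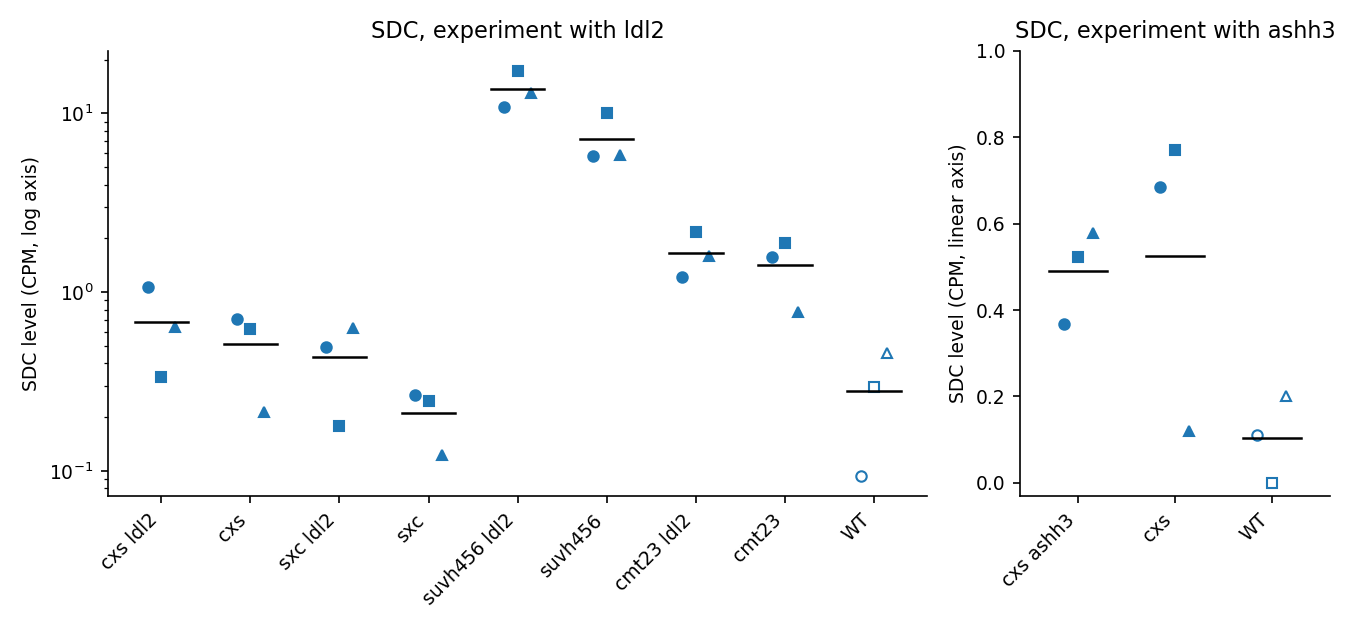
SDC level in CPM in each library of the experiment with ldl2 (left, log axis) and of the experiment with ashh3 (right, linear axis); marker shapes stand for replicates 1 (circle), 2 (square), and 3 (triangle), open markers for WT, and lines for means. The suvh456 ldl2 and suvh456 libraries sit between 5.79 and 17.3 CPM and all F1 libraries at 1.08 CPM or below.

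In the F1 plants, which regain a functional copy of each enzyme, SDC was below the suvh456 parent in both crosses. It had 0.710, 0.622, and 0.215 CPM in cxs and 0.267, 0.245, and 0.123 CPM in sxc. With ldl2 it had 1.08, 0.335, and 0.636 CPM in cxs ldl2 and 0.495, 0.178, and 0.629 CPM in sxc ldl2. All of these ranges overlapped that of WT. As a share of the mean of its parents, the SDC level was 11.9% in cxs, 4.90% in sxc, 8.86% in cxs ldl2, and 5.63% in sxc ldl2.

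The log2 fold change of SDC was -3.75 ± 0.46 SE in cxs against suvh456 (edgeR, adjusted P = 3.52e-05) and -4.97 ± 0.52 in sxc against suvh456 (adjusted P = 2.69e-06), and both calls were kept under all 32 alternatives. Of all genes, 0.72% passed as lower in cxs and 0.732% in sxc. Against cmt23 it was -2.63 ± 0.57 in sxc (adjusted P = 0.0487), where 0.137% of all genes passed as lower. The call in sxc against cmt23 held in 11 of 32 alternatives, and the adjusted P reached at most 0.483. It was lost with RLE scaling, with the replicate number as a block (adjusted P = 0.0683), with only the compared groups fitted, without any of sxc replicates 1, 2, and 3 or cmt23 replicates 1 and 2, and without some libraries of other genotypes. Against cmt23, cxs was at -1.41 ± 0.49 and did not pass (unadjusted P = 0.00898; edgeR, adjusted P = 0.326, and 0.186 to 0.827 under the alternatives), where 0.238% of all genes passed. Their libraries did not overlap, as was so for 7.99% of all genes in the lower direction. Between the reciprocal crosses, cxs against sxc gave 1.22 with a 95% interval of -0.02 to 2.47 (adjusted P = 1), and 0.00298% of all genes passed.

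None of the F1 genotypes passed the test against WT for SDC. The log2 fold change was 1.18 in cxs ldl2 (95% interval, 0.05 to 2.30; edgeR, unadjusted P = 0.0518, adjusted P = 0.288), 0.84 in cxs (-0.33 to 2.01; adjusted P = 1), 0.55 in sxc ldl2 (-0.65 to 1.76; adjusted P = 0.817), and -0.39 in sxc (-1.74 to 0.96; adjusted P = 1). These intervals rest on 7 to 23 reads per F1 genotype, against 10 in WT. They use a normal quantile, so the one in cxs ldl2 leaves out 0 although the unadjusted P was above 0.05. In these 4 comparisons none of the 5 genes passed, and the share of all genes that passed in either direction was 1.39%, 0.78%, 1.78%, and 0.857% in the same order.

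The ldl2 effect on SDC did not pass in any background. Between suvh456 ldl2 and suvh456 the libraries did not overlap in CPM, as was so for 4.29% of all genes in the higher direction. The difference was 0.92 on the log2 scale with a 95% interval of 0.20 to 1.65 (unadjusted P = 0.0198, edgeR adjusted P = 1, and 0.903 to 1 under the 32 alternatives). It was 0.22 between cmt23 ldl2 and cmt23 (-0.63 to 1.07), 0.94 between sxc ldl2 and sxc (-0.34 to 2.22), and 0.34 between cxs ldl2 and cxs (-0.70 to 1.38). Few genes passed for ldl2 at all, 0.0238% in suvh456, 0.0625% in cmt23, 0.128% in sxc, and 0.101% in cxs, and none of the 5 genes was among them.

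**Figure D2:**
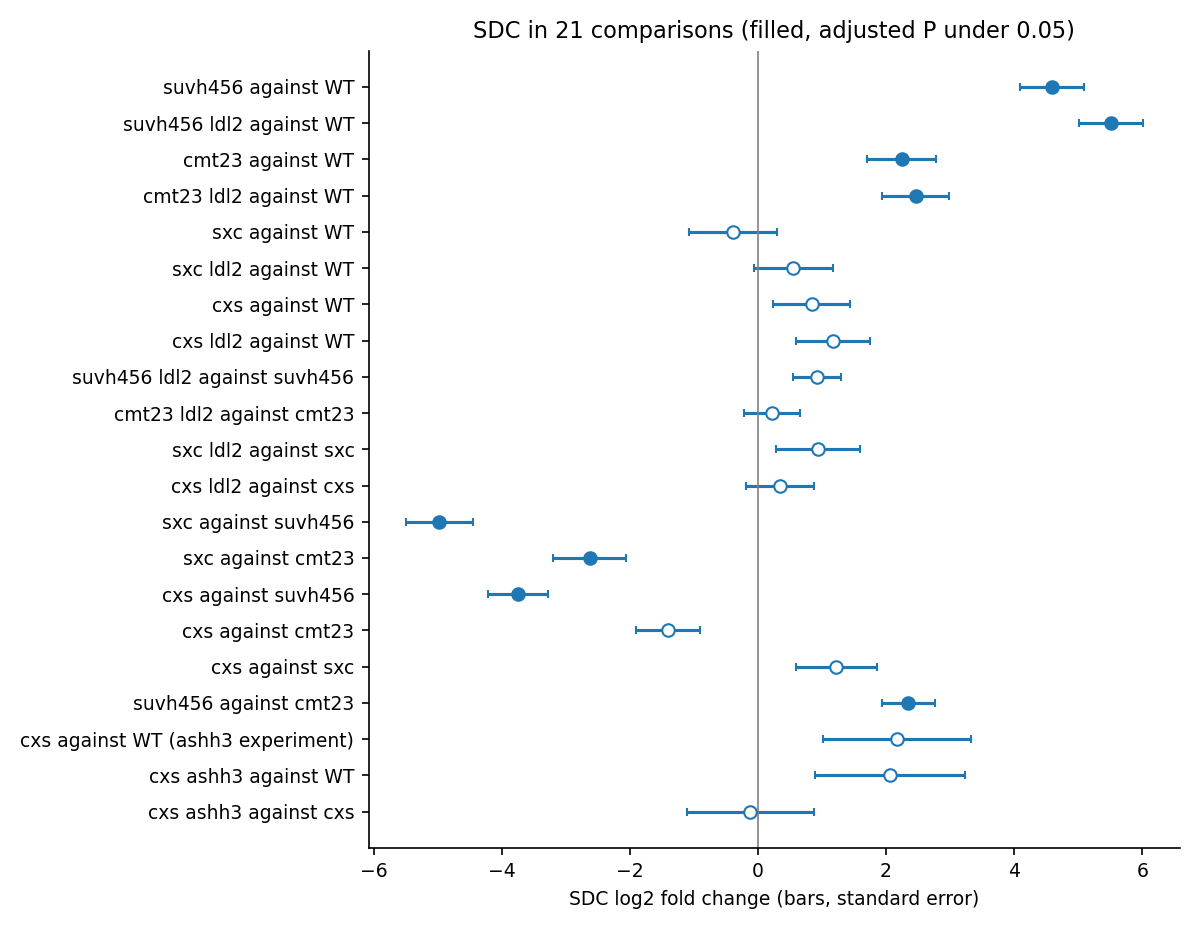
Log2 fold change of SDC in the 21 comparisons, with the genotype named first over the genotype named second; bars are standard errors, and filled points passed at an adjusted P under 0.05. The 8 filled points are the 4 parental mutants over WT, suvh456 over cmt23, both F1 crosses over suvh456, and sxc over cmt23.

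In the experiment with ashh3, SDC was again scarce, with 3, 5, and 5 reads in cxs ashh3 and 7, 8, and 1 reads in cxs, against 1, 0, and 2 reads in WT. The levels were 0.367, 0.523, and 0.579 CPM in cxs ashh3 and 0.686, 0.771, and 0.119 CPM in cxs, against 0.111, 0, and 0.201 CPM in WT. The libraries of cxs ashh3 did not overlap those of WT, as was so for 9.94% of all genes in the higher direction, and those of cxs did. SDC was at a log2 fold change of 2.06 in cxs ashh3 against WT (95% interval, -0.24 to 4.36; edgeR, adjusted P = 0.453), 2.18 in cxs against WT (-0.09 to 4.45; adjusted P = 0.408), and -0.12 in cxs ashh3 against cxs (-2.07 to 1.84; adjusted P = 1). None of the 5 genes passed in these 3 comparisons, where 5.43%, 5.63%, and 1.06% of all genes passed in the same order. On simulated counts with each gene's own dispersion, the fit of this experiment gave more false calls than its threshold allows, so these shares and the calls of ATML1, AT2G32380, and the seed storage genes in this experiment may hold more false calls than the threshold implies. The mean of cxs was 0.525 CPM in this experiment and 0.516 CPM in the experiment with ldl2, set side by side because the tables were scaled apart.

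The levels of SDC over the 9 genotypes ran from 13.8 ± 3.24 CPM in suvh456 ldl2 through 7.24 ± 2.46 in suvh456, 1.66 ± 0.48 in cmt23 ldl2, 1.41 ± 0.57 in cmt23, 0.683 ± 0.37 in cxs ldl2, 0.516 ± 0.26 in cxs, 0.434 ± 0.23 in sxc ldl2, and 0.212 ± 0.077 in sxc, with 0.282 ± 0.18 CPM in WT (SD, n = 3 each). In this order suvh456 ldl2 and suvh456 did not overlap, nor did suvh456 and cmt23 ldl2, and each other neighbor overlapped the next. Per length, SDC had 13.4 TPM in suvh456 ldl2 and 0.270 TPM in WT, while BNS had 6.40 TPM in suvh456 ldl2 and 7.50 TPM in WT, so SDC was the more abundant transcript in the first and the less abundant in the second.

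Neither neighbor of SDC passed in any comparison of either experiment. The gene on its 3′ side, AT2G17695, begins 28 bases from the end of SDC on the opposite strand, and it ranged from 26.5 to 44.0 CPM over the 27 libraries with log2 fold changes between -0.33 and 0.32. The gene on its 5′ side, AT2G17680, lies 2004 bases away and had at most 0.489 CPM in the same libraries.

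The genes whose pattern was most like that of SDC over the 9 genotype means of log2(CPM + 1) were AT5G41830, a protein-coding gene (Pearson r = 0.989), AT3G43640, a TE gene (r = 0.989), and AT4G06622, a TE gene (r = 0.988). AT5G41830 averaged 8.45 CPM in suvh456 and 2.22 CPM in cmt23, against 0.128 CPM in WT. AT3G43640 averaged 13.8 CPM in suvh456 and 0.906 CPM in cmt23, and had 0 CPM in WT. Of the 20470 genes averaging at least 1 CPM, 576 were TE genes, and 70 of the 100 genes most like SDC were TE genes. A TE gene silent in WT passes this filter only if it is high in other genotypes, as AT3G43640 was. The filter thus favors TE genes with a pattern like that of SDC, and enrichment was not tested. These correlations are a description of 9 means from the same libraries.

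FWA transcript was near the detection limit in every genotype but cxs ldl2. It had 0, 14, and 11 reads in cxs ldl2, and no other library of the experiment held more than 4 reads. It had 1, 0, and 0 reads in cxs, 0, 1, and 1 in sxc ldl2, 1, 0, and 0 in sxc, 0, 1, and 2 in suvh456 ldl2, 3, 0, and 1 in suvh456, 0, 1, and 1 in cmt23 ldl2, and 1, 0, and 0 in cmt23, against 0, 0, and 4 in WT. The reads in cxs ldl2 came from replicates 2 and 3 and none from replicate 1, so the group overlapped all others. In the experiment with ashh3 FWA had 0 reads in all cxs ashh3 libraries and 0, 1, and 1 reads in cxs, against 1, 0, and 2 reads in WT. The 0 reads of cxs ashh3 allow a level of up to 0.114 CPM over the group.

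The mean level of FWA was 0.683 ± 0.61 CPM in cxs ldl2 and 0.0263 ± 0.046 CPM in cxs (SD, n = 3 each). The difference did not pass (log2 fold change, 4.09 ± 1.74 SE; 95% interval, 0.67 to 7.51; unadjusted P = 0.0278; edgeR, adjusted P = 0.186). Without cxs ldl2 replicate 2 the adjusted P was 0.697, without replicate 3 it was 0.241, and without replicate 1 it was 0.0645, the lowest of the alternatives. The replicates with FWA reads are those with the most genes detected. The 7 other type I MADS-box genes of the endosperm summed to 3.33, 7.21, and 1.99 CPM in cxs ldl2 replicates 1, 2, and 3, against 1.61 to 2.89 CPM in the other libraries. The 6 other paternally expressed imprinted genes summed to 1.37, 3.44, and 1.27 CPM, against 0.0945 to 1.08 CPM. Replicate 1, which had no FWA reads, was thus also above the other genotypes for these 2 lists. Floral organ markers (5 genes) summed to 1.27, 14.1, and 3.66 CPM in cxs ldl2 replicates 1, 2, and 3, against 1.49 to 8.35 CPM in the other libraries. These markers are regulatory genes of floral meristem and floral organ identity. The pollen markers VGD1 and VGDH1 had equal counts in all 27 libraries and count as a single signal. VGD1 had 0, 2.85, and 1.43 CPM in the same replicates, against 0 to 1.04 CPM in the other libraries. Of the floral markers, AP1, a floral meristem gene, passed as lower in cmt23 against WT (0.0315 CPM in cmt23, 1.27 CPM in WT; edgeR, adjusted P = 0.0368), where FWA had 1 read in cmt23 and 4 in WT. That call was lost without WT replicate 2 or 3 or any 1 of the cmt23 replicates. Seed storage markers (10 genes) summed to 6.17, 19.8, and 8.27 CPM in cxs ldl2 replicates 1, 2, and 3, against 2.39 to 15.0 CPM in the other libraries. The part of other tissues or of the number of detected genes in the FWA reads was not tested.

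**Figure D3:**
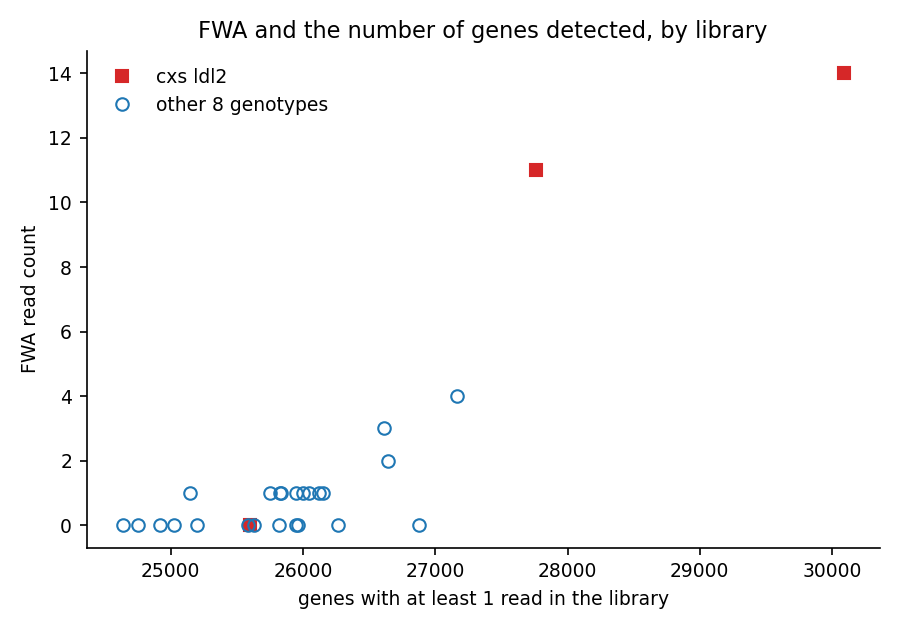
FWA read count of each of the 27 libraries of the experiment with ldl2 (vertical axis) against the number of genes with at least 1 read in that library, (horizontal axis); filled squares are cxs ldl2 and open circles the other 8 genotypes. The libraries with 14 and 11 FWA reads have 30088 and 27758 genes detected, the most of all, and the library with 4 FWA reads is next.

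FT, the flowering signal that FWA protein binds, averaged 1.11 ± 0.78 CPM in cxs ldl2 and 0.659 ± 0.046 CPM in cxs, against 1.28 ± 0.19 CPM in WT (SD, n = 3 each), and its log2 fold change over WT lay between -1.66 in sxc ldl2 and -0.20 in cxs ldl2 over the 8 genotypes. Without cxs ldl2 replicate 2, FT in cxs ldl2 against cxs was at 0.01, against 0.74 with it. With ashh3, FT ranged from 0.367 to 1.05 CPM in cxs ashh3 and from 0.358 to 1.25 CPM in cxs, against 1.75 to 2.11 CPM in WT (log2 fold change, -1.32 and -1.15). FT did not pass in any of the 18 comparisons with ldl2 or the 3 with ashh3. Neither neighbor of FWA, AT4G25520 at 2146 bases and AT4G25540 at 113 bases, passed in any comparison. Of the other 14 HD-ZIP IV genes, none passed in the 18 comparisons with ldl2. Their median log2 fold change lay between -0.23 and 0.17 over these comparisons, and that of all genes between 0 and 0.08. In cxs against WT of the experiment with ashh3, ATML1, an epidermal identity factor, passed at a log2 fold change of 0.33 (89.4 CPM in cxs, 71.2 CPM in WT; edgeR, adjusted P = 0.0486), a call kept in 6 of 14 alternatives. There 5.63% of all genes passed in either direction.

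HDG3 had no reads in 23 of the 27 libraries of the experiment with ldl2. Its 9 reads were 0, 3, and 0 in cxs ldl2, 0, 0, and 1 in cxs, and 0, 1, and 4 in sxc ldl2. The mean of sxc ldl2 was 0.149 ± 0.19 CPM (SD, n = 3) and overlapped that of each genotype without reads. A total of 0 reads in a group of 3 libraries, as in suvh456, cmt23, and WT, allows a level of up to 0.0835, 0.0929, and 0.0884 CPM over the group, so differences at this level were not detectable. In the experiment with ashh3 the antisense strand of HDG3 was the one counted, with 4, 0, and 1 reads in cxs and none in cxs ashh3 or WT. HDG3 did not pass in any comparison. Its neighbor AT2G32380, 324 bases away on the opposite strand, passed in 1 of 21 comparisons, cxs ashh3 against WT (log2 fold change, 1.11; edgeR, adjusted P = 0.00367). There 5.43% of all genes passed in either direction.

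PHE1 was low in all genotypes, with 0 to 8 reads per library in the experiment with ldl2. It had 6, 8, and 7 reads in suvh456 ldl2 and 1, 2, and 3 in suvh456, and 3, 6, and 5 in cmt23 ldl2 and 3, 1, and 1 in cmt23. It had 6, 4, and 2 reads in cxs ldl2 and 0, 3, and 0 in cxs, and 3, 8, and 0 in sxc ldl2 and 0, 0, and 3 in sxc. WT had 5, 3, and 7 reads. In CPM, the libraries of suvh456 ldl2 did not overlap those of suvh456, nor those of WT, and those of suvh456 and cmt23 each lay below those of WT. In the same directions 4.29%, 13.8%, 8.69%, and 10.7% of all genes did not overlap in these 4 comparisons.

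None of the PHE1 differences passed. Between suvh456 ldl2 and suvh456 the log2 fold change was 1.82, with a 95% interval of -0.52 to 4.16 (edgeR, adjusted P = 1). Mean levels were 0.631 ± 0.084 CPM in suvh456 ldl2 and 0.173 ± 0.10 CPM in suvh456, against 0.433 ± 0.12 CPM in WT (SD, n = 3 each). In the experiment with ashh3 PHE1 had 8, 11, and 2 reads in cxs ashh3 and 1, 14, and 12 in cxs, against 3, 6, and 4 in WT, and all 3 ranges overlapped. Seed storage transcripts were above those of the other libraries in cxs replicates 2 and 3 but not in cxs replicate 1. The 10 markers summed to 6.76, 20.6, and 132 CPM in cxs replicates 1, 2, and 3 of that experiment, and to 1.04 to 11.1 CPM in its other libraries. Of these, CRA1, a cruciferin storage protein gene, averaged 24.1 CPM in cxs and 0.381 CPM in cxs ashh3, against 3.91 CPM in WT. In cxs against WT 3 of the 10 markers, CRA1, CRU3, and OLEO2, passed as higher, where 5.63% of all genes passed in either direction. They were kept in 7, 7, and 9 of 14 alternatives in that order. All 3 were lost without cxs replicate 3 or WT replicate 2, with filterByExpr, and with the Wald test of DESeq2. CRA1 and CRU3 were also lost without WT replicate 3, with the replicate number as a block, and with only the compared groups fitted. In cxs ashh3 against cxs 4 markers passed as lower, where 1.06% of all genes passed in either direction. Of these 4, CRU3 was kept in 9 of 14 alternatives and OLEO1 in 10 of 13, both lost without cxs replicate 3 and without cxs ashh3 replicate 1 or 2 (CRU3 also without cxs ashh3 replicate 3), and CRA1, CRU3, and OLEO2 were lost with filterByExpr. Their part in the PHE1 reads was not tested. The neighbors of PHE1, AT1G65320 and AT1G65340, did not pass in any comparison.

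Relatives of PHE1 gave no calls. None of the 7 other type I MADS-box genes of the endosperm, PHE2 among them, passed in the 21 comparisons. The same held for the 6 other paternally expressed imprinted genes. In cxs ldl2 against cxs the median log2 fold change was 3.19 for the MADS-box genes and 1.80 for the paternally expressed genes, against 0.08 for all genes. In the same comparison it was 2.08 for the seed storage markers, 2.05 for the pollen markers, and 1.37 for the maternally expressed genes. Without cxs ldl2 replicate 2, the library with the most genes detected, the medians were 0.17 for the MADS-box genes, 1.13 for the paternally expressed genes, and 0.21 for the maternally expressed genes. They were 1.03 for the seed storage markers and 1.08 for the pollen markers. AGL36, AGL34, AGL90, and ADM had no reads in cxs, and these genes were also set at the lower bound that 3 counts over the group give. With all replicates kept, the medians were then 1.24 for the MADS-box genes and 1.18 for the paternally expressed genes. One gene of the MADS-box list, AGL36, is also on the list of maternally expressed genes, as HDG8 and HDG9 are on that of the HD-ZIP IV genes.

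Among the 8 other maternally expressed imprinted genes, only MPC, which encodes a poly(A)-binding-like protein, passed, in 6 of the 18 comparisons of the experiment with ldl2 and each time as higher. MPC averaged 8.07 ± 0.67 CPM in suvh456 ldl2 and 4.84 ± 0.31 CPM in suvh456, against 0.468 ± 0.38 CPM in WT (SD, n = 3 each). It averaged 4.68 ± 2.51 CPM in cxs ldl2, 5.93 ± 4.25 CPM in cxs, 3.23 ± 1.52 CPM in sxc ldl2, and 1.14 ± 0.25 CPM in sxc. In cmt23 ldl2 and cmt23 it averaged 0.270 ± 0.25 and 0.224 ± 0.20 CPM. Its log2 fold change over WT was 4.07 in suvh456 ldl2 (edgeR, adjusted P = 6.51e-04), 3.33 in suvh456 (adjusted P = 0.00692), 3.63 in cxs (adjusted P = 0.00616), and 3.28 in cxs ldl2 (adjusted P = 0.0138). Over cmt23 it was 4.40 in suvh456 (adjusted P = 0.00359) and 4.70 in cxs (adjusted P = 0.00569). Of all genes, 2.94% passed as higher in suvh456 ldl2 and 2.09% in suvh456 over WT, and 0.634% in suvh456 over cmt23. In either direction, 0.78% passed in cxs and 1.39% in cxs ldl2 over WT, and 0.238% in cxs over cmt23. The MPC calls in suvh456 ldl2 over WT and in suvh456 over cmt23 were kept under all 32 alternatives. The call in suvh456 over WT was lost without WT replicate 2, those in cxs and cxs ldl2 over WT without WT replicate 2 or 3 or with only the compared groups fitted, and that in cxs over cmt23 without cmt23 replicate 1 or with only the compared groups fitted. Like SDC, MPC was high in both suvh456 genotypes, but it had 5.93 CPM in cxs where SDC had 0.516 CPM. The other 7 genes of that list did not pass in any of the 21 comparisons. In the experiment with ashh3 MPC averaged 1.72 ± 2.22 CPM in cxs ashh3 and 0.650 ± 0.37 CPM in cxs, against 0.617 ± 0.16 CPM in WT, and it did not pass.

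No difference in BNS between genotypes passed the test. Its mean level in the experiment with ldl2 was 3.59 CPM in cxs ldl2, 3.59 CPM in cxs, 3.16 CPM in sxc ldl2, 3.25 CPM in sxc, 2.74 CPM in suvh456 ldl2, 3.45 CPM in suvh456, 3.64 CPM in cmt23 ldl2, and 3.05 CPM in cmt23, against 3.26 CPM in WT. Single libraries ranged from 26 to 52 reads, and each genotype overlapped the next in the order of levels. Over the 18 comparisons the log2 fold changes lay between -0.33 and 0.25. The 95% interval was -0.37 to 0.54 in suvh456 against WT and -0.55 to 0.37 in cmt23 against WT.

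In the experiment with ashh3 BNS had 29, 37, and 46 reads in cxs ashh3 and 65, 37, and 36 in cxs, against 18, 32, and 33 in WT. The log2 fold change in cxs against WT was 0.65 ± 0.29 SE and did not pass (unadjusted P = 0.0386; edgeR, adjusted P = 0.280, and 0.161 to 0.688 under 14 alternatives). It was 0.49 in cxs ashh3 against WT (95% interval, -0.10 to 1.08) and -0.16 in cxs ashh3 against cxs (-0.72 to 0.40).

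The LINE pseudogene beside BNS, AT1G73175, lies 3 bases from its 3′ end, and its counted strand had at most 0.725 CPM in the experiment with ldl2 and 0.882 CPM in the experiment with ashh3. Neither it nor AT1G73180, the divergent gene on the other side (19.2 to 35.6 CPM in the experiment with ldl2), passed in any comparison. None of the 11 other subunits of the anaphase-promoting complex passed in the 21 comparisons, and their median log2 fold change lay between -0.14 and 0.14. The genes with the highest r to BNS over the 9 genotype means were AT1G55160 (Pearson r = 0.888), AT5G32450 (r = 0.887), and AT2G24150 (r = 0.885), and no gene reached 0.9. These are the highest of 20470 genes over 9 means, for a gene with no passing difference. They may reflect noise, and likeness was not tested. For SDC 122 genes reached 0.9, but the filter at 1 CPM favors TE genes with a pattern like that of SDC.

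**Figure D4:**
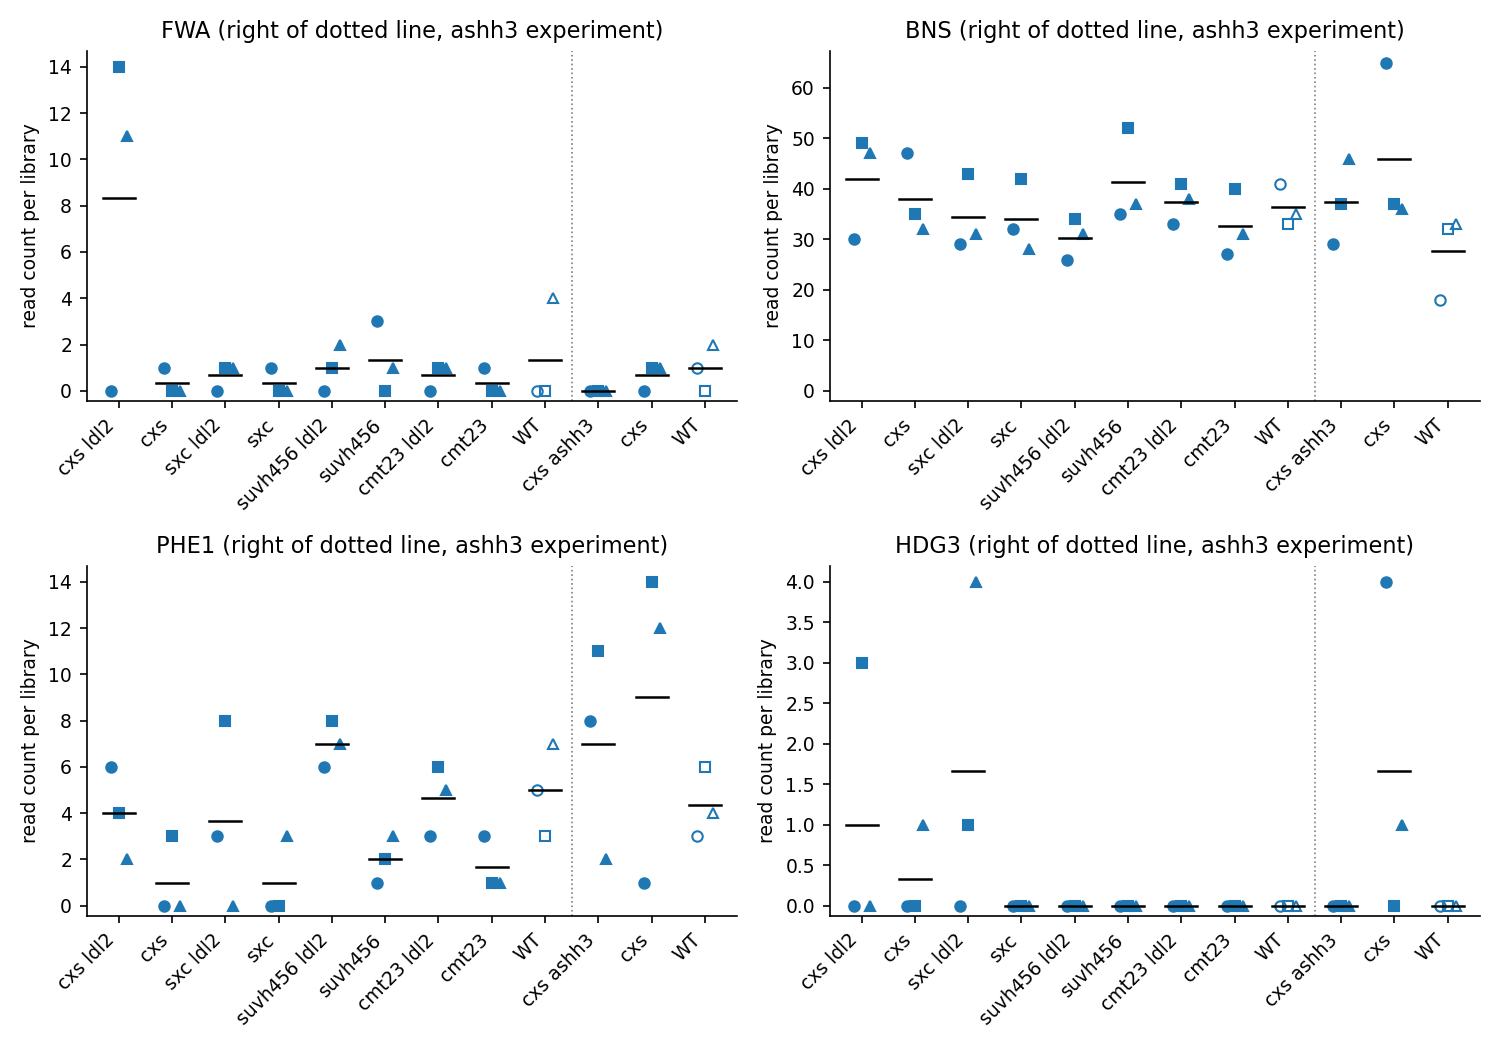
Read counts of FWA, BNS, PHE1, and HDG3 (vertical axes, reads per library) by genotype in the experiments with ldl2 (left of the dotted line) and ashh3 (right); marker shapes stand for replicates 1 (circle), 2 (square), and 3 (triangle), open markers for WT, and lines for means. BNS lies between 18 and 65 reads throughout, and FWA exceeds 4 reads in only 2 libraries, both cxs ldl2.

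Over the 21 comparisons SDC passed in 8, and FWA, BNS, PHE1, and HDG3 passed in none by edgeR. The Wald test of DESeq2 gave an adjusted P for BNS in 21 comparisons, for PHE1 in 17, for FWA in 7, and for HDG3 in 1, and none of these passed. At an unadjusted P under 0.05, FWA and BNS each had 1 comparison and PHE1 and HDG3 had 0. By mean TPM in the experiment with ldl2, the order was BNS (7.78), SDC (2.83), PHE1 (0.445), FWA (0.0931), and HDG3 (0.0180). These means pool genotypes that differ, since SDC lay above BNS in suvh456 ldl2 and below it in WT, and 25 of the 43 FWA reads came from cxs ldl2. SDC, FWA, PHE1, and HDG3 all had few or no reads in WT seedlings, and of these SDC alone passed in the parental mutants.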

How the data were processed

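Total RNA from whole 2-week-old seedlings was made into mRNA-seq libraries (KAPA mRNA HyperPrep). The deposited values are raw read counts per gene, which the authors obtained by clipping 50 bases from the 3′ end, mapping to TAIR10 with STAR, and counting each gene with GeneCounts. The authors kept, per table, the strand with the larger sum for each gene, so 4528 protein-coding genes of the experiment with ldl2 and 3215 of that with ashh3 were counted antisense. The tables were therefore fitted apart.

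For each experiment, the counts of every genotype entered a single model, tested with the quasi-likelihood F test of edgeR 4.0.16 in R 4.3.3, with TMM scaling and no filter on low counts, and P values were adjusted over all 33602 genes by Benjamini-Hochberg (threshold, 0.05). Intervals are nominal 95% intervals from the fitted standard error and a normal quantile, so they can be narrower than the F test implies. Limits for 0 reads (3 counts over a group) cover counting error only. TPM used RefSeq exon lengths, and 775 genes without exons there took their table length. DESeq2 1.42.0 served as an alternative, beside RLE scaling, a filter, a replicate block, the compared groups alone, and each library left out. The fits were tested on simulated data. Coding sequences were aligned with Biopython 1.88. For SDC and BNS the 3 genes with the highest Pearson r over genotype means were named, the genes averaging at least 1 CPM being compared. The study's methods call the replicates of a genotype independent biological replicates. The 5 genes and all gene lists were chosen with earlier results of these data known. Chromatin and methylation libraries of the series, and 12 single-library count files that match no label, were not used here.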

Additional observations from a re-analysis of the deposited data

How the results depend on the processing

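Of the 8 calls of SDC, 5 were kept under all 32 alternatives, and none of the 5 genes turned its direction where called. The number of the 5 genes called was 1 in cmt23 against WT, in cmt23 ldl2 against WT, and in sxc against cmt23, and it was 0 in each of these with only the compared groups fitted. In sxc against cmt23 it was also 0 with RLE scaling and 0 with the replicate number as a block. Leaving out 1 library of a compared group gave 0 to 1 in all 3 comparisons. Of 618 alternative fits each, 583 gave an adjusted P for FWA, 618 for BNS, 596 for PHE1, and 577 for HDG3, and none of these was a call. With filterByExpr, FWA and HDG3 were left out of every test and PHE1 was tested in 3 comparisons.

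The labels tie replicates of the same number by that number alone and do not say whether they shared a batch. The correlation of their deviations ran from -0.54 to 0.55 and exceeded 0.1 in every pair in 2 of 21 comparisons. Where the pairing held in the data (suvh456 ldl2 against suvh456 and cmt23 ldl2 against WT), the block changed no call, and in sxc against cmt23 the adjusted P with the block was 0.0683 by edgeR. RLE scaling moved the median log2 fold change of all genes in cxs ldl2 against WT to 0.14, against 0.08 with TMM. Depth limits FWA, PHE1, and HDG3, whose levels rest on a few reads. On simulated counts with each gene's own dispersion, the fit of the experiment with ashh3 gave more false calls than its threshold allows, which bears on its shares of all genes and on its calls of ATML1, AT2G32380, and the seed storage genes.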
